A study of Homo sapiens with 18 samples.

Results

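Interferon-stimulated genes were examined through the chromatin peaks that belong to them in Raji cells. The set had 44 genes, and a peak was counted to a gene when its centre lay inside the gene's span, or else when the gene was the nearest protein-coding gene within 50 kb. This gave 80 of the 71318 peaks, in or near 30 of the 44 genes (68.2%, where 73.9% of all protein-coding genes had a peak). Peaks were matched to genes by position on GRCh38.

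Raji is an established B-cell line from a Burkitt lymphoma. The assay was Omni-ATAC-seq, which reads open chromatin from the places where a transposase could insert adapters. Groups were GFP high and GFP low at 24, 48 and 72 h, each with 3 samples that the labels number as replicates 1 to 3. All 18 samples carried the genotype Smarca4+/+, and the series concerns loss of SMARCA4, the motor of BAF chromatin remodellers, by an auxin-inducible degron. What GFP marks is not in the labels, nor which GFP level goes with loss of the protein, how auxin was given or whether the line was 1 clone, and groups are named here by GFP level and time.

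Interferons are cytokines released when cells sense viral nucleic acid. Type I interferon binds a receptor at the cell surface, the kinases JAK1 and TYK2 are activated, and a complex that holds STAT2 and IRF9 binds the interferon-stimulated response element in the promoters of target genes. The products of these genes sense RNA, block viral replication, or attach ISG15, a ubiquitin-like protein, to other proteins.

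The 3 columns of a GFP level and time differed by only 1.78 to 1.81 times the counting variance, the same in all 18 such pairs, against 2.21 to 3.47 between times and 4.46 to 7.22 between GFP levels at the same time. On that ground they were summed to 1 library, although the labels number the samples of a group as replicates. This gave 6 libraries of 22908652 to 29790483 counts. No label ties a library to a culture of its own, so p-values rest on the spread of the GFP contrast between times, which may be technical. For each peak that spread is largely pooled over other peaks, with 2 residual and a median of 22.6 prior degrees of freedom. Column headers carry D and V numbers, and D1 to D3 were read as 24, 48 and 72 h. Of 8 B-cell marker genes, 7 had a peak and 6 a peak within 1 kb of a gene end (BLK had no peak). The summed level of those gene-end peaks was 262 to 274 CPM (counts per 1e+06 counts in peaks, TMM-scaled) in GFP high and 272 to 291 in GFP low. Gene-end peaks of 4 of 6 T-cell markers summed to 80.6 to 83.7 CPM in GFP high and 73.1 to 74.7 in GFP low, and CD3G had no peak. For myeloid markers, 1 of 5 had a gene-end peak, at 11.9 to 13.5 and 8.35 to 11.0 CPM (CD14 and MPO had no peak), and none of 4 epithelial markers had one. The part of these markers in the results was not tested.

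Promoter windows of 250 bases before to 50 after a gene's start were taken from RefSeq (GRCh38.p14), and 36 of the 44 genes had at least 1, for 51 windows in all. The interferon-stimulated response element, searched on both strands as GAAA, 2 bases of any kind and GAAA, was found in 28 of the 51 windows (54.9%) against 3.18% of 22105 windows of protein-coding genes. The ETS-IRF composite element, GGAA, 2 bases of any kind and GAAA, at which an ETS factor such as PU.1 and an interferon regulatory factor bind side by side, was in 11 windows (21.6%, against 2.52% of all), and 6 windows held both. The gamma-activated site, TTCNNNGAA, was in 17.6% against 6.81%, and the AP-1 site, TGANTCA, in 13.7% against 6.16%. These are matches of letters, not measured binding.

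The windows below are those that a peak overlapped in genes on which the results turn: IFI6, ISG20 and STAT2, where the promoter peak rose, MX1 and OAS1, where it fell, and IFIT3 and ISG15, where it did not pass the test. Capitals mark response elements and composite elements on either strand, and the sequence is written 5′ to 3′ on the strand of the gene. The windows lie as follows: IFI6 at chr1:27672143-27672442, minus strand, ISG20 at chr15:88638766-88639065, plus strand, STAT2 at chr12:56360058-56360357, minus strand, MX1 at chr21:41431800-41432099, plus strand, OAS1 at chr12:112906712-112907011, plus strand, IFIT3 at chr10:89332279-89332578, plus strand, ISG15 at chr1:1013247-1013546, plus strand.
IFI6: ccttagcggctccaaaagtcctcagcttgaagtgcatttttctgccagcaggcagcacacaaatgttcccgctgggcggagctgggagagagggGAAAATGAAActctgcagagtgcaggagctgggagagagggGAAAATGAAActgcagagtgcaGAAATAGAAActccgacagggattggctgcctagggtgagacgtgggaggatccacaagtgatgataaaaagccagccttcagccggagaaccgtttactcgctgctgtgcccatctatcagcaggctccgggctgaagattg
ISG20: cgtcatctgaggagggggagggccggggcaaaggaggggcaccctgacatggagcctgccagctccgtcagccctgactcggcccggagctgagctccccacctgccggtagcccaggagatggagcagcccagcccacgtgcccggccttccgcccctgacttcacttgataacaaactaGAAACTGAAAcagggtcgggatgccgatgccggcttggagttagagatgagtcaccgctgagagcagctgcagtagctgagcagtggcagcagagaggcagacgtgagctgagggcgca
STAT2: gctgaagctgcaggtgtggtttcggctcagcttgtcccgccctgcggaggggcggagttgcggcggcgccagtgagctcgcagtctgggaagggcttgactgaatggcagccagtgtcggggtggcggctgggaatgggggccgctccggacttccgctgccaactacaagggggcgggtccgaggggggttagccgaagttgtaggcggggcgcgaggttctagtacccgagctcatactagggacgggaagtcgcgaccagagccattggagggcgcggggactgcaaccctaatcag
MX1: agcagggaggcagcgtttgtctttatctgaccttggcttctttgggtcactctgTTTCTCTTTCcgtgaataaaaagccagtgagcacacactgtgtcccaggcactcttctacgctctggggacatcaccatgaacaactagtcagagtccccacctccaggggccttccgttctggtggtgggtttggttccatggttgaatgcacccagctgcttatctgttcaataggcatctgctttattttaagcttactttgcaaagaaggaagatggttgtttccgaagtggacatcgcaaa
OAS1: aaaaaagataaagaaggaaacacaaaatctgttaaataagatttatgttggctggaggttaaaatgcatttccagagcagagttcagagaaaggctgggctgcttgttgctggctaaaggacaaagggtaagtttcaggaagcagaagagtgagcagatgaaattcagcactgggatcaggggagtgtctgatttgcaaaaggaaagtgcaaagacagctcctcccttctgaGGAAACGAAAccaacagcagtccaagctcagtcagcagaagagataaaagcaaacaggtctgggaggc
IFIT3: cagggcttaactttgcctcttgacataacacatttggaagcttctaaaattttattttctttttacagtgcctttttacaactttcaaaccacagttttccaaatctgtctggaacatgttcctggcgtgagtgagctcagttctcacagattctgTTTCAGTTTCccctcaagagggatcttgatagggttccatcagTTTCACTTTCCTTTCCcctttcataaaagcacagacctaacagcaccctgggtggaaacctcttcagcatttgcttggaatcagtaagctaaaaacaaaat
ISG15: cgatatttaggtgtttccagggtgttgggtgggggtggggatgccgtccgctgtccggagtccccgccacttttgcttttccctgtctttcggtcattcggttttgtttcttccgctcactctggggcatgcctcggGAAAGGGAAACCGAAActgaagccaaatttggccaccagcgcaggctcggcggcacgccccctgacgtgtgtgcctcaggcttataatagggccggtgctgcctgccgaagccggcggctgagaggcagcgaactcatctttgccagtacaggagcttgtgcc
IFI6 held 3 response elements, ISG15 held 2 that overlap, and IFIT3 held 2 with a composite element overlapping the second. ISG20 and MX1 held 1 match to the response element pattern each, and OAS1 held 1 match to the composite pattern. These patterns differ only in their second letter, so a match does not tell which kind of element a stretch is. STAT2 held neither. A response element was thus present under peaks that rose, that fell and that did not pass.

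The main comparison asked which of these peaks were more or less open in GFP low than in GFP high when all 3 times were used. The deepest falls were at peaks inside PARP14 and SP100, away from their starts, to 0.364 and 0.460 of their GFP high level. Further falls came inside OAS2 and IFIT3, at the far end of ISG20 and at a gene end of TRIM22. TRIM22 had no promoter window here, so whether that end is its start was not read. Rises were smaller and led by the start of IFI6. The test was edgeR's quasi-likelihood F with time in the model. At a Benjamini-Hochberg adjusted p under 0.05 over all 71318 peaks, 21 of the 80 peaks were lower in GFP low (26.3%, against 25.4% of all peaks) and 6 were higher (7.5%, against 13.4%). The share of lower peaks was thus near that of all peaks. The median log2 change was -0.02, and 0.03 over all peaks. All 80 peaks passed the low-count filter, the weakest with a mean of 64.3 counts per library. In bulk ATAC-seq, fewer cells with an open site and less opening per cell cannot be told apart.

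The GFP levels did not overlap over the 3 times in 21 lower peaks (25.1% of all peaks did so) and 13 higher peaks (20.8% of all). Of the 21 lower calls 19 were among the former, and all 6 higher calls were among the latter. DESeq2 called 13 lower and 2 higher. Leaving out both 72 h libraries gave 11 lower and 1 higher. With loess scaling, which removes trends with abundance, 15 were lower and 12 higher (18.8% and 15%, against 21.8% and 13.3% of all peaks), so the lower share of rises among members was not seen there. At least 1 alternative fit ended the call of 11 lower peaks: those of IFI16, MX1, OAS1 and OAS3, the OAS2 gene end, the IFI6 peak outside the gene, ISG20 at 1.22 and 8.84 kb, PARP14 at 17.6 kb, and SP100 at 14.4 and 55.6 kb. It also ended all higher calls other than the IFI6 start. Among genes, 9 had only lower called peaks, 4 only higher (IFI44L, IFIH1, PARP9 and STAT2), ISG20 and IFI6 had both and 15 had neither. In the table used here the remaining 14 genes had no peak: IFIT1, IFIT2, IFIT5, IFI27, MX2, USP18, HERC5, HERC6, DDX60, XAF1, GBP1, GBP5, TAP1 and PSMB9. They are not analysed here, apart from a peak over the IFIT5 promoter window that was counted to LIPA, because its centre lies inside that gene. TAP1 and PSMB9 lie in the major histocompatibility region, where the table used here holds almost no peaks. Without them 30 of 42 genes had a peak (71.4%).

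**Figure D1:**
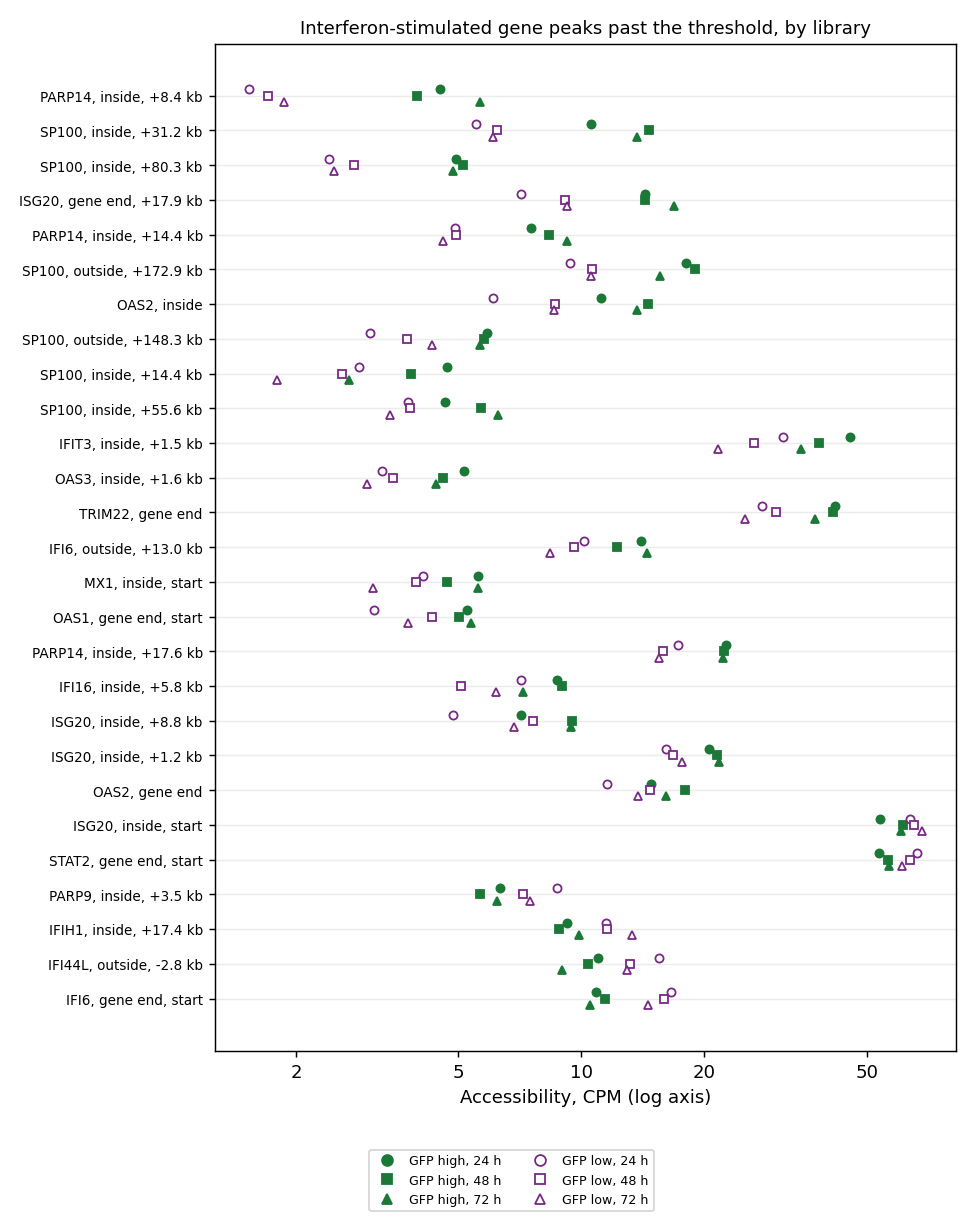
Accessibility in CPM (log axis) of the 27 member peaks past the threshold, in each of the 6 libraries; filled points are GFP high, open points GFP low, and shapes are times. Labels give the gene, the position and, where the start is known, the distance from it. The lower peaks stand at the top, with PARP14 falling from 3.97 to 5.66 CPM in GFP high to 1.54 to 1.87 in GFP low, and the higher ones at the bottom.

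Among the antiviral effectors, 30 peaks in 9 of 10 genes held 11 falls and 1 rise (36.7% and 3.33%, against 25.4% and 13.4% of all peaks). SP100, a core component of PML nuclear bodies with a role against DNA viruses, took 6 of the falls. Its deepest was a peak inside the gene, 31.2 kb after the start (chr2:230447681-230448181), with 10.6, 14.6 and 13.7 CPM at 24, 48 and 72 h in GFP high and 5.52, 6.22 and 6.08 in GFP low. All 3 GFP low values lay below all 3 of GFP high, for a change of -1.12 ± 0.13 on the log2 scale (SE, edgeR adjusted p = 6.59e-07). The other called SP100 peaks also fell, with changes of -0.62, -0.59 and -0.96 inside the gene at 14.4, 55.6 and 80.3 kb and of -0.65 and -0.78 at 19.4 and 44.0 kb outside it. The SP100 promoter peak (chr2:230415932-230416432) stood at 33.6, 31.9 and 35.6 CPM in GFP high and 32.1, 32.8 and 35.1 in GFP low. Those values interleave, and the change was -0.01 ± 0.09 (adjusted p = 0.914).

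ISG20, an exonuclease that degrades RNA, showed both directions within 1 gene. Its promoter peak (chr15:88638588-88639088) was the strongest of all 80, at 53.9, 61.5 and 60.7 CPM in GFP high and 63.7, 65.2 and 68.3 in GFP low. The rise of 0.16 ± 0.07 only just passed (adjusted p = 0.048), and with loess scaling it came to -0.02 and was not called. At its far end, 17.9 kb after the start (chr15:88656687-88657187), values of 14.3, 14.3 and 16.9 CPM went to 7.13, 9.10 and 9.24. Here the GFP levels were far apart, with a log2 change of -0.84 ± 0.12 (adjusted p = 1.08e-05). Peaks 1.22 and 8.84 kb after the start fell by 0.34 and 0.44 on the log2 scale. A gene-end peak before that start did not pass (0.22 ± 0.11, adjusted p = 0.106).

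TRIM22, a RING-finger E3 ligase that restricts several viruses, had the strongest gene-end peak that fell (chr11:5689402-5689902). It held 41.7, 41.3 and 37.4 CPM in GFP high and 27.6, 30.01 and 25.2 in GFP low, a log2 change of -0.54 ± 0.09 (adjusted p = 4.41e-05). No library of one level reached the range of the other. The MX1 promoter peak (chr21:41431681-41432181) was weak, at 5.59, 4.68 and 5.58 CPM in GFP high and 4.10, 3.95 and 3.09 in GFP low. It lay inside the gene's span, over 1 of 3 promoter windows of MX1. MX1 codes for a dynamin-like GTPase that blocks influenza and other viruses. Its change of -0.51 ± 0.17 passed (adjusted p = 0.0226) without overlap, but not with DESeq2 (adjusted p = 0.12), with loess scaling or without the 72 h pair.

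The other antiviral effectors had no called peak. The start peaks of SAMD9 and SAMD9L, neighbouring genes that restrict poxviruses, stood at -0.08 ± 0.11 and -0.20 ± 0.14, the stronger SAMD9L gene-end peak at -0.03 ± 0.13, and that of BST2, which codes for tetherin and tethers budding virions to the cell, at 0.05 ± 0.15. The BST2 window is shared with MVB12A. RSAD2 (viperin) had 1 peak, at its far end (0.37 ± 0.16, adjusted p = 0.063), and CMPK2, which lies next to it, had 3 peaks outside the gene. None of these 4 passed (log2 changes -0.08 to 0.37), and no peak lay over the promoter windows of either gene.

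In the group of STAT2, PARP9, PARP14 and DTX3L, all 4 genes had a peak, and 3 of 8 peaks fell and 2 rose (37.5% and 25%, with the same shares of all peaks as above). PARP14 is a mono-ADP-ribosyltransferase, and PARP9 and DTX3L form a complex of a macrodomain protein and an E3 ubiquitin ligase. The PARP14 peak 8.42 kb after the start (chr3:122689012-122689512) had the largest change of the 80. It held 4.51, 3.97 and 5.66 CPM in GFP high and 1.54, 1.71 and 1.87 in GFP low, a ratio of 0.364 and a log2 change of -1.46 ± 0.21 (edgeR adjusted p = 1.04e-05). The peak is weak, with a mean of 84.7 counts per library, yet the levels lay well apart at every time. Peaks at 14.4 and 17.6 kb fell by 0.80 ± 0.14 and 0.47 ± 0.11, so all 3 called PARP14 peaks lay inside the gene and fell. A further peak, 1.5 kb before the start, went the other way but just missed the threshold (0.33 ± 0.13, edgeR adjusted p = 0.0504). It held 7.95, 7.39 and 6.27 CPM in GFP high and 8.96, 8.78 and 9.41 in GFP low.

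STAT2, the interferon-specific member of the STAT family, had its only peak at its start (chr12:56359884-56360384). It held 53.6, 56.3 and 56.6 CPM in GFP high and 66.5, 63.7 and 61.1 in GFP low, a rise of 0.20 ± 0.07 (adjusted p = 0.0222). The levels did not overlap, but with loess scaling the change came to 0.02 (adjusted p = 0.801), and without the 24 or 72 h pair the adjusted p was 0.0512 and 0.109. PARP9 and DTX3L share a start from which they are read in opposite directions. The peak over it (chr3:122564080-122564580) held 20.9, 20.2 and 19.1 CPM in GFP high and 22.7, 21.2 and 22.2 in GFP low and did not pass (0.13 ± 0.11, adjusted p = 0.317), while a peak 3.48 kb into PARP9 rose by 0.36 ± 0.14 (adjusted p = 0.0395). DTX3L had 1 peak, 1.13 kb outside the gene, at 42.8 to 50.2 CPM in all 6 libraries and a change of -0.00 ± 0.07 (adjusted p = 0.99).

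Sensors and nucleic-acid enzymes held 25 peaks in 9 of 10 genes, with 5 falls and 1 rise. These shares, 20% and 4.0%, lie below the 25.4% and 13.4% of all peaks. The oligoadenylate synthetases, which sense double-stranded RNA and activate RNase L, gave 4 of the falls. Inside OAS2 (chr12:112998912-112999412), 11.2, 14.5 and 13.7 CPM went to 6.07, 8.64 and 8.59, a change of -0.76 ± 0.12 (adjusted p = 3.47e-05) without overlap. The OAS1 promoter peak (chr12:112906701-112907201) held 5.25, 5.02 and 5.38 CPM in GFP high and 3.11, 4.30 and 3.77 in GFP low (-0.49 ± 0.17, adjusted p = 0.0277). The level in GFP low was below every GFP high value, but the call was not made by DESeq2 (adjusted p = 0.136), with loess scaling, or without the 24 or 72 h pair. The stronger OAS1 gene-end peak, 0.583 kb after the start, did not pass (-0.22 ± 0.16). OAS3 fell by 0.54 ± 0.18 at a peak 1.65 kb after its start (-0.31, adjusted p = 0.26, without the columns numbered V2), and a gene-end peak of OAS2 by 0.29 ± 0.11. The 2 peaks near OASL, both outside the gene, did not pass.

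Of the RNA helicase sensors, IFIH1 (MDA5) had a strong peak at its start (chr2:162318182-162318682), shared with the window of GCA. It held 48.3, 46.0 and 45.4 CPM in GFP high and 42.6, 48.0 and 50.4 in GFP low, and the levels overlapped (0.01 ± 0.08, adjusted p = 0.92). A peak 17.4 kb into IFIH1 rose by 0.38 ± 0.12 (adjusted p = 0.0138), from 8.81 to 9.88 CPM in GFP high to 11.5 to 13.3 in GFP low. RIGI, the sensor of RNA with a triphosphate end, had 1 peak, at its start, with a change of 0.05 ± 0.10. EIF2AK2, the RNA-activated kinase PKR that halts translation, stood at 15.7, 14.9 and 18.1 CPM in GFP high and 20.2, 20.3 and 17.7 in GFP low and did not pass (0.26 ± 0.12, adjusted p = 0.0775). ADAR, which edits double-stranded RNA, had 4 peaks with changes of 0.15 to 0.27, none of which passed. IFI16, a sensor of DNA, fell at a peak 5.75 kb after its start (-0.44 ± 0.14, adjusted p = 0.0183). Without the 48 h pair, where the difference was -0.81, it came to -0.26 and was not called (adjusted p = 0.262). Its 2 promoter peaks stood at -0.29 ± 0.13 and 0.11 ± 0.11 and did not pass.

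Of the IFIT proteins, which bind viral RNA and block its translation, only IFIT3 had peaks, and all 3 also lie inside the span of LIPA. The strongest, 1.52 kb after the start (chr10:89333796-89334296), held 45.6, 38.2 and 34.6 CPM at 24, 48 and 72 h in GFP high and 31.3, 26.5 and 21.6 in GFP low. GFP low lay below GFP high at each time and in all pairs of libraries, with a log2 change of -0.58 ± 0.09 (adjusted p = 2.25e-05). The IFIT3 promoter peak (chr10:89332223-89332723) held 12.6, 12.4 and 11.2 CPM in GFP high and 12.7, 12.1 and 7.23 in GFP low. The levels matched closely at 24 and 48 h and parted at 72 h, and the change over times did not pass (-0.21 ± 0.13, adjusted p = 0.208).

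IFI6, a mitochondrial and endoplasmic reticulum protein that opposes apoptosis and flavivirus replication, had the largest rise of the 80 peaks, at its start (chr1:27671984-27672484). It held 10.8, 11.4 and 10.5 CPM in GFP high and 16.6, 15.9 and 14.5 in GFP low, a ratio of 1.43 and a log2 change of 0.52 ± 0.11 (adjusted p = 0.00104). Every GFP low value was above every GFP high value, and the rise held in each alternative fit, at 0.57 with loess scaling. A peak 13.0 kb beyond the start of IFI6, outside the gene, fell by 0.53 ± 0.12. IFI44L rose at a peak 2.77 kb before its start, from 11.0, 10.4 and 8.96 CPM to 15.5, 13.2 and 13.0 (0.45 ± 0.12, adjusted p = 0.00392), a call lost without the 72 h pair (0.41, adjusted p = 0.0737) and without the columns numbered V2 (0.26, adjusted p = 0.151). The start peaks of IFI44, the neighbour of IFI44L, and of IFI35 were weak, at -0.24 ± 0.20 and -0.17 ± 0.15, and did not pass.

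ISG15 itself had 1 peak, over its start (chr1:1013195-1013695), with 15.7, 16.7 and 18.6 CPM in GFP high and 19.2, 16.4 and 16.7 in GFP low. The ranges overlap, and the change was 0.03 ± 0.12 (adjusted p = 0.83). USP18, which removes ISG15 from proteins, and the HERC ligases of this group had no peak. The guanylate-binding proteins, GTPases that attack vacuoles of pathogens and respond above all to interferon gamma, had 2 weak peaks, 20.2 kb outside GBP2 and 0.356 kb after the start of GBP4. Both had 1.66 to 3.74 CPM in every library, and neither passed (0.09 ± 0.24 and -0.04 ± 0.23).

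**Figure D2:**
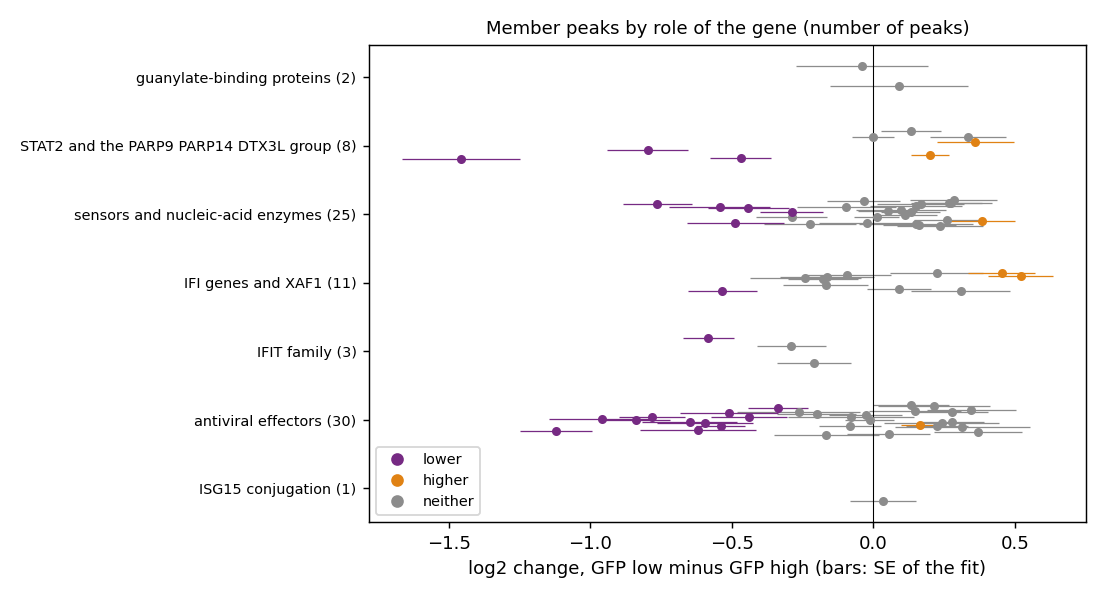
Log2 change in GFP low against GFP high over times for the 80 member peaks, grouped by the role of the gene, with the number of peaks in parentheses. Points are fitted values, bars their SE, and colour the call. The falls of PARP14 (-1.46) and of SP100 among the antiviral effectors (-1.12) lie farthest from 0.

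SP100 and PARP14 together held 9 of the 21 falls. Without their peaks, 12 of 67 were lower (17.9%) and 6 higher (8.96%), where 25.4% and 13.4% of all peaks were, and the median change was 0.05. By position, of 30 member peaks in gene bodies, 14 were lower and 3 higher, where 30.3% and 7.98% of all gene-body peaks were. SP100 and PARP14 held 7 of these 14 falls, and without them 7 of 22 gene-body peaks were lower (31.8%). Setting genes aside by their falls lowers the share that is left, so the shares without them are not a like comparison with all peaks. Of 24 intergenic member peaks, 3 were lower and 1 higher, where 30.6% and 8.96% of all intergenic peaks were. The median changes were -0.29 and 0.15 in these 2 classes, against -0.07 and -0.03 for all peaks of the class. Peaks of 1 gene are neighbours and not independent of each other.

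Of 26 member peaks within 1 kb of a gene end, 2 were higher and 4 lower (7.69% and 15.4%), where 34.4% of 13712 such peaks were higher and 4.24% lower. Their median change was -0.00 against 0.18, and no test of the members against other peaks was made. Over promoter windows, 19 member peaks held 3 rises (IFI6, ISG20 and STAT2) and 2 falls (MX1 and OAS1), where 46.5% of 8215 peaks over promoter windows were higher and 2.34% lower. Their median change was 0.01 against 0.21. OAS2 and TRIM22, each with a gene-end peak that fell, had no promoter window and are not in this count. With loess scaling the shares of higher peaks lay closer. At gene ends 7.69% of member peaks were higher against 10.1% of all, and over promoter windows 1 of 19 (5.26%) against 11.1%. Lower were 7.69% against 4.10% at gene ends and 0% against 2.47% over promoter windows. The medians still differed, at 0.03 against 0.09 at gene ends and -0.06 against 0.10 over promoter windows.

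Abundance differs between these sets. Member peaks over promoter windows had a median of 14.2 CPM against 31.7 for all, and calls of higher peaks are rarer among weak ones. In bands chosen after the values were seen, 0 of 11 member gene-end peaks under 10 CPM were higher, where 4.08% of all gene-end peaks in that band were. From 10 to 25 CPM it was 1 of 11 against 13.4%, and above 25 CPM 1 of 4 against 61.4%. Median changes of member and of all gene-end peaks lay close under 10 CPM (-0.04 against -0.01) and from 10 to 25 CPM (0.13 against 0.14). Only above 25 CPM, with 4 member peaks, were they apart (-0.00 against 0.22). The 4 strongest gene-end peaks were those of STAT2, IFIH1, SP100 and TRIM22, of which STAT2 rose and TRIM22 fell.

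**Figure D3:**
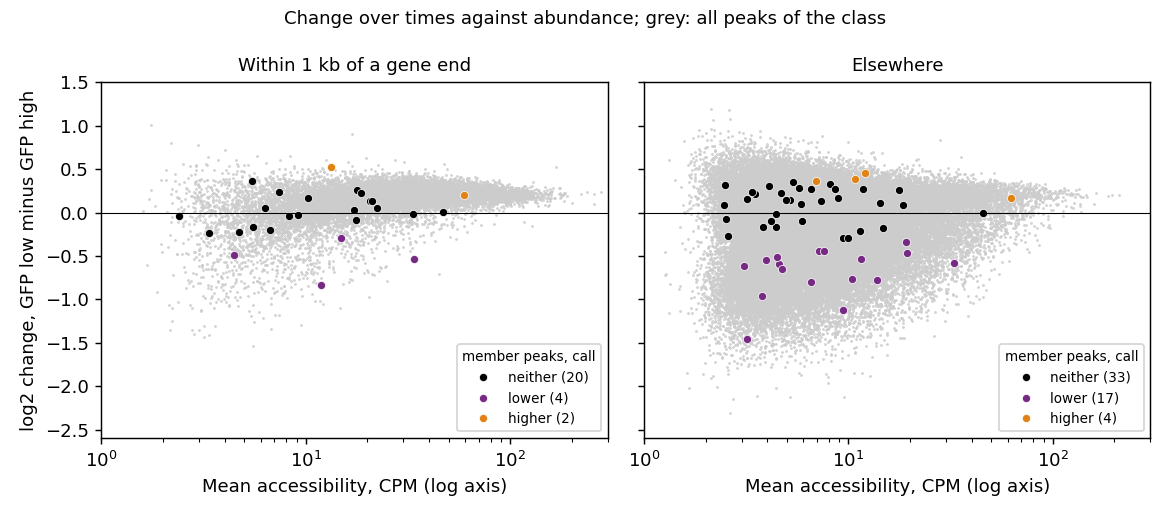
Log2 change in GFP low against GFP high over times (vertical) against mean accessibility in CPM (log axis), for peaks within 1 kb of a gene end (left) and elsewhere (right). Grey points are all peaks of the class and coloured points the 80 member peaks by call. At gene ends the grey cloud lies above 0 at high abundance, with a median of 0.22 above 25 CPM. The 26 members spread around 0 with a median of -0.00, but only 4 of them lie above 25 CPM.

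Promoter peaks were also split by the response element. Among all peaks over promoter windows, 267 overlapped a window with a response element, of which 39.7% were higher and 4.49% lower, with a median change of 0.20. The 7948 without it had 46.7% higher and 2.26% lower and a median of 0.21. Their median levels were 23.6 and 31.9 CPM. Among member promoter peaks, 11 with a response element held 2 rises and 1 fall, and 8 without held 1 of each. The fall among the 8 was that of OAS1, whose window matched the composite pattern. These counts are given as a description, with no test.

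**Figure D4:**
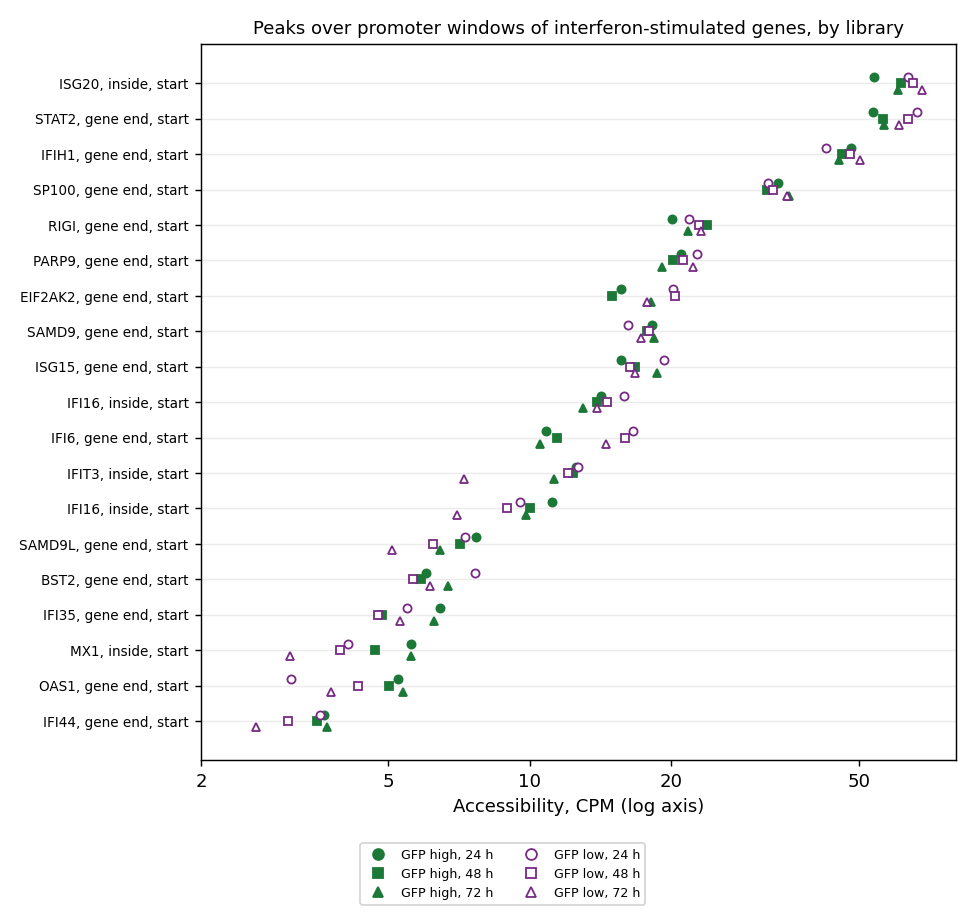
Accessibility in CPM (log axis) of the 19 member peaks over promoter windows in each library, ordered by mean level, with filled points for GFP high, open points for GFP low and shapes for times. Most rows show the 2 levels interleaved. IFI6 is separated upward in GFP low (14.5 to 16.6 against 10.5 to 11.4 CPM), as are ISG20, STAT2 and the start shared by PARP9 and DTX3L. The weak MX1 and OAS1 peaks and an IFI16 peak are separated downward.

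At single times there was 1 library per GFP level, so differences have no replicate check, and the 95% intervals cover counting error only. At 24 h, 2 of the 80 peaks were at least 2-fold lower, in PARP14 and SP100, where 8.16% of all peaks were. At 48 and 72 h it was again 2, one in each of these genes, where 3.85% and 3.83% of all peaks were. None was at least 2-fold higher at any time, where 0.212%, 0.226% and 0.0911% of all peaks were. The PARP14 peak 8.42 kb after the start differed by -1.51 (interval -2.20 to -0.82) at 24 h, -1.18 (-1.83 to -0.53) at 48 h and -1.56 (-2.16 to -0.96) at 72 h. The SP100 peak at 31.2 kb differed by -0.93 (-1.32 to -0.54), -1.23 (-1.56 to -0.89) and -1.16 (-1.51 to -0.81). All 21 lower and all 6 higher peaks had the same sign at each time, and the interval stayed clear of 0 at all 3 times in 12 and 2 of them. The 2 higher ones were IFI6, at 0.61 (0.31 to 0.91), 0.48 (0.20 to 0.75) and 0.46 (0.17 to 0.76), and IFI44L.

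**Figure D5:**
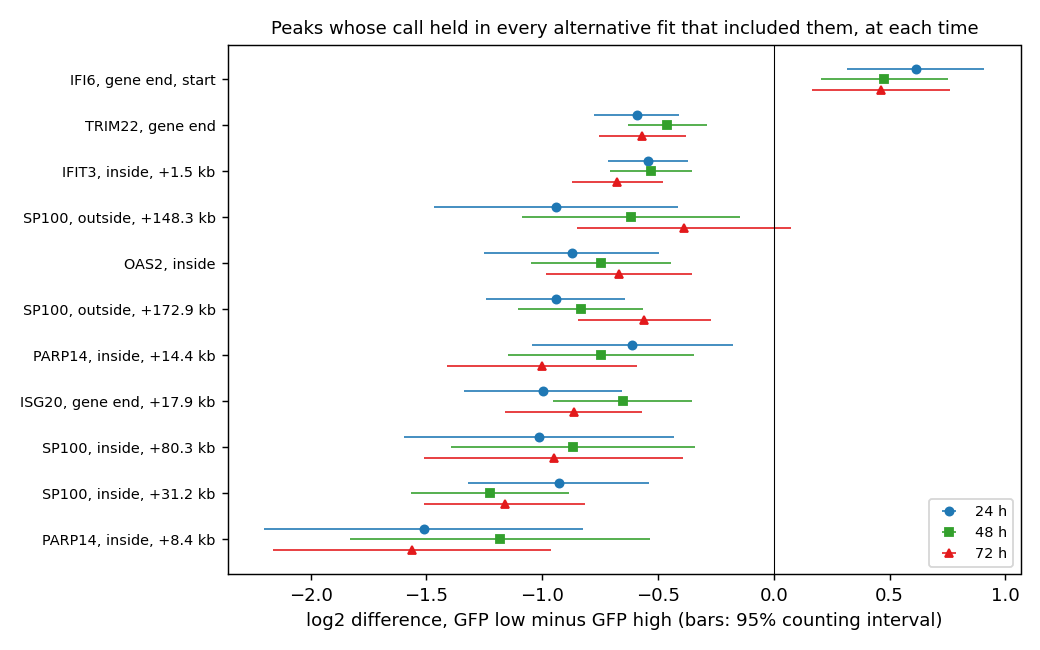
Log2 difference between the GFP low and GFP high libraries at 24, 48 and 72 h, with 95% counting intervals, for the 11 member peaks whose call was kept in every alternative fit that included them (10 lower and 1 higher). IFI6 stands to the right of 0 at each time. The other 10 stand to the left, and the interval of 1 of them, SP100 at 148.3 kb from the start, reaches past 0 at 72 h.

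Change with time was read between the 72 and 24 h libraries of 1 GFP level, again with no replicate check. None of the 80 peaks changed 2-fold. In all peaks, 0.599% were at least 2-fold lower and 0.0841% higher in GFP high, and 1.09% and 0.632% in GFP low. The median change of member peaks was 0.00 in GFP high and -0.12 in GFP low, against -0.00 and -0.01 for all peaks. Over promoter windows the members' medians were 0.01 and -0.19, against 0.08 and -0.03. The IFIT3 promoter peak went down by 0.80 in GFP low, from 12.7 to 7.23 CPM, and by 0.16 in GFP high, and the IFIT3 peak at 1.52 kb by 0.53 and 0.40. That of MX1 went from 4.10 to 3.09 CPM in GFP low and from 5.59 to 5.58 in GFP high. A contrast between the levels in their change with time was not tested.

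Genes that induce interferon or carry its signal, none of them in the set of 44, held 163 peaks in 30 of 33 genes, with 49 lower and 19 higher (30.1% and 11.7%, against 25.4% and 13.4% of all peaks) and a median change of -0.06. IRF9, IRF7 and STING1 had no peak. Among receptors, kinases and regulators of interferon signalling, 19 of 72 peaks were lower and 12 higher (26.4% and 16.7%), near the shares of all peaks. The start peaks of IFNAR1, a chain of the type I receptor, and IFNGR1, a chain of the interferon gamma receptor, rose by 0.39 ± 0.10 and 0.23 ± 0.05 (adjusted p = 0.00382 and 0.00204). JAK2, a kinase of the interferon gamma receptor, rose at its start from 51.5, 53.7 and 55.8 CPM to 62.9, 71.0 and 74.7 (0.37 ± 0.07, adjusted p = 0.000105), while a peak 12.9 kb outside it fell by 1.11 ± 0.17. Peaks inside JAK1 and 19.1 kb outside SOCS3, a feedback inhibitor of cytokine signalling, fell by 1.02 ± 0.15 and 1.55 ± 0.24. Gene-end peaks of this list summed to 506 to 556 CPM in GFP high and 621 to 641 in GFP low, without overlap, and gene-end peaks of all genes had a median change of 0.18. The start peaks of IFNAR1, IFNGR1 and JAK2 had means above 25 CPM. All gene-end peaks above that level had a median change of 0.22, and 61.4% were higher.

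Interferon regulatory factors had 15 of 41 peaks lower and 4 higher (36.6% and 9.76%, against 25.4% and 13.4% of all peaks). Gene-end peaks of IRF1 and IRF2, an activator and a repressor of the response, rose by 0.22 ± 0.06 and 0.25 ± 0.06, while peaks 16.9 and 32.5 kb outside them changed by -0.78 ± 0.12 and -0.80 ± 0.14. IRF5 fell at a peak over a promoter window, from 29.9, 29.3 and 28.8 CPM to 22.1, 20.4 and 19.5 (-0.50 ± 0.10, adjusted p = 0.000396). In the list of interferon induction, 15 of 50 peaks fell and 3 rose (30% and 6.0%). Called peaks inside genes fell in TRIM25, an E3 ligase of the RIGI pathway (-0.86 ± 0.13), CGAS, the sensor of cytosolic DNA (-0.72 ± 0.12), and TRAF3, an adaptor (-0.71 ± 0.12). The start of TBK1, the kinase that activates IRF3, and a peak inside MAVS, the adaptor of RIGI and IFIH1, rose by 0.22 ± 0.08 and 0.50 ± 0.15. The rises at IRF1, IRF2 and TBK1 gene ends, all above 25 CPM, were near the median of 0.22 for all gene-end peaks above that level.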

How the data were processed

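Open chromatin was profiled by Omni-ATAC-seq in GFP high and GFP low Raji cells at 3 times. The deposited table gives raw read counts for 18 columns over 1 common peak set. The tools named by the submitters' processing notes are FastQC, BWA, deepTools and R (version 4.2.1), and the build is hg38. How peaks were called, how duplicates were treated and whether reads were shifted for the transposase is not given in the sources used here. Columns of 1 group differed by 1.80 times the counting variance on average, and duplicates or paired ends counted separately would widen that spread.

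Columns of a GFP level and time were summed, and 6 libraries were fitted in edgeR 4.0.16 (R 4.3.3, TMM scaling, terms for time and GFP level, 2 residual degrees of freedom, a median of 22.6 prior degrees of freedom). The low-count filter removed 0 peaks. SEs are the log2 change divided by the square root of the quasi-likelihood F. Values are CPM with TMM scaling. Counting intervals at single times multiply the counting variance by the same factor and use log2 CPM with a prior count of 2. Genes were 19932 protein-coding genes of a RefSeq table (GRCh38.p14), with 105 readthrough genes left out. A peak inside several genes took the one with the nearest end. Peaks named with values were member peaks past the threshold, the most abundant gene-end peak of each member, member peaks at least 2-fold changed at a time and, of pathway genes, up to 3 per list and direction by smallest p. Other member peaks named were chosen after their values were seen. Alternatives used DESeq2 1.42.0, limma 3.58.1 for loess curves, other scalings and filters, and libraries or columns left out. The code was tested on simulated data. Members and lists were chosen with earlier results of these data known, and marker and pathway lists come from general knowledge.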

Additional observations from a re-analysis of the deposited data

Results flagged for a closer look

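The GFP contrast of 2 peaks went opposite ways at different times, with a counting interval clear of 0 in each direction. With 1 library per GFP level and time, this difference was not tested. The ADAR peak 0.427 kb after a start (chr1:154627294-154627794) differed by 0.47 at 24 h, -0.50 at 48 h and 0.53 at 72 h. It held 9.50, 11.1 and 7.95 CPM in GFP high and 13.2, 7.82 and 11.5 in GFP low. The IFIH1 start peak (chr2:162318182-162318682) differed by -0.182 at 24 h, 0.0592 at 48 h and 0.153 at 72 h. These 2 peaks came from a search of all 80.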

How the results depend on the processing

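Of the 21 lower and 6 higher calls among member peaks, 10 and 1 held in every alternative fit that included them. The counts came to 13 lower and 2 higher with DESeq2, and the same 13 and 2 were among the main calls. Loess scaling called 12 higher (15%, against 13.3% of all peaks), of which 4 were among the 6 main calls. Scaling moved the median of all peaks by at most 0.02 (log2). The ISG20 promoter peak came to -0.0177 with loess scaling. Without the 72 h pair 11 were lower and 1 higher, and over all leave-one-out fits the counts ranged from 11 to 18 lower and from 1 to 7 higher. Over peaks within 1 kb of a gene end alone they were 4 and 2. With V numbers read as time 15 were higher. For pathway genes, 49 lower and 19 higher peaks came to 6 higher with DESeq2, 31 in the fit on 18 columns without a block, 30 with V numbers read as time and 3 without the 72 h pair, and the range over leave-one-out fits was 33 to 45 lower and 3 to 19 higher. The count at least 2-fold lower at 24 h came to 1 with loess scaling. With a mean count of at least 30 per column, an alternative chosen after seeing the data, it was 1 at 24, 48 and 72 h. Leaving out the columns of 1 V number gave 2 to 5 at 24 h, 2 to 3 at 48 h and 2 to 5 at 72 h. The median change of member peaks came to 0.03 with loess scaling and lay between -0.01 and 0.02 in leave-one-out fits.

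V numbers are not matched to replicate numbers. Deviations of columns with the same V number correlated weakly between groups, at -0.00546 to 0.0180, yet 15 of 18 columns correlated best with their own V number. Whether such columns share more than a number was not tested. In the fit on 18 columns, 15 member peaks were higher without and with a replicate block by V number, and 30 pathway peaks were higher with the block. Of all peaks, 19287 were higher without the block and 19083 with it. Those fits treat the 3 columns of a group as separate libraries. Peaks under about 5 CPM, such as those of GBP2, GBP4, CMPK2 and IFI44, have SEs of 0.16 to 0.24, so differences of that size were not detectable at this depth.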
